A study of Homo sapiens with 6 samples.

Results

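The drug efflux ABC transporters described here are 9 genes, ABCB1, ABCC1, ABCC2, ABCC3, ABCC4, ABCC5, ABCC6, ABCC10 and ABCG2, chosen by symbol as carriers of etoposide and related drugs or their close relatives, and all 9 were found among the 22354 loci counted. The study asked how loss of the clock gene BMAL1 bears on senescence of thyroid cells, and RNA was sequenced from HTori-3.1, an immortalized line grown from normal human thyroid. Of 6 libraries, 3 formed the control group, labelled wild type, and 3 came from cells that received a virus carrying Cas9 and a guide RNA against BMAL1, were selected with puromycin and were grown from single clones. The second group is labelled BMAL1 knockout and is called the knockout-labelled libraries. Both groups were exposed to etoposide at 2 μM, so the comparison has no untreated cells. The treatment field of the labels gives 12 h of exposure and the protocol gives 24 h. How many clones were used, whether the control group carried a control virus and whether replicates came from separate cultures are not stated, so p-values measure only the spread between these libraries, which may be technical.

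ABC transporters are membrane proteins that bind and split ATP and use the energy to move substrates across a membrane. Those at the cell surface push drugs, drug conjugates and signalling molecules out of the cell, and a cell rich in them holds less drug. Etoposide, which traps topoisomerase II on DNA and leaves strand breaks, is a known substrate of ABCB1 and ABCC1, and ABCC2, ABCC3 and ABCG2 also carry it or its glucuronide. In several tissues, transporter genes follow the time of day through the clock factors, which bind DNA at the E-box and the D-box.

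The targeted gene was read first. BMAL1 had 11.3, 12.2 and 14.6 CPM (read counts scaled to a common library total with TMM factors) in the control libraries, and 17.9, 19.8 and 19.4 CPM in the knockout-labelled libraries. All 3 knockout-labelled libraries were above the control group, so the transcript was not lower under the knockout label. The log2 fold change was 0.58 (SE 0.11, edgeR quasi-likelihood test, Benjamini-Hochberg adjusted p = 0.0204, n = 3 per group). Counts over the whole gene do not show whether the protein was lost, so they cannot decide whether the label holds. The adjusted p was not under 0.05 without control replicate 1 (0.0896), control replicate 2 (0.113), knockout replicate 2 (0.0749) or knockout replicate 3 (0.0598), in the same edgeR test with Benjamini-Hochberg adjustment. The study's methods name a western blot of the clones, and protein was not analysed here. NR1D1 and NR1D2, clock genes that BMAL1 is known to activate, were downregulated, with log2 fold changes of -1.25 and -0.78 and Benjamini-Hochberg adjusted p-values of 0.00146 and 0.00233 by edgeR, calls made in 6 of 6 fits that left out a library. The level of NR1D1 is uncertain, since it shares bases with THRA, which is read from the other strand. The groups are therefore called by their labels, and every direction below is that of the knockout-labelled libraries over the control group. The control libraries held 26893063, 27029060 and 28513703 counts and the knockout-labelled libraries held 43148059, 29860233 and 43563391, a ratio of medians of 1.6. Knockout replicate 1 stood apart from its group, its counts differing from those of knockout replicates 2 and 3 by 31.0 and 45.0 times the variance of counting alone, against 7.43 times between replicates 2 and 3 and 5.41 to 14.5 times within the control group. Without it, edgeR called 633 loci in place of 373 at a Benjamini-Hochberg adjusted p under 0.05.

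The thyroid label was compared with marker genes. The thyroid factor PAX8 was measured at 133 ± 15.4 CPM in the control group and 110 ± 19.1 CPM in the knockout-labelled libraries, and FOXE1 at 48.0 ± 0.717 and 40.0 ± 3.29 CPM (SD, n = 3 each). NKX2-1 had 0 counts in every library, and TG, TSHR and SLC5A5 had at most 13 counts in any library, so the defining genes of hormone synthesis were at or near 0. Keratins were abundant, with KRT18 at 278 ± 3.08 and KRT8 at 205 ± 6.02 CPM per kilobase of annotated exon in the control group (SD, n = 3). In CPM, KRT8 had the most of the epithelial markers, 1416, 1444 and 1363 in the control group, and it overlaps KRT18 on the opposite strand, so both levels are uncertain. By contrast, the epithelial marker CDH1 had at most 14 counts. These libraries thus carry thyroid and epithelial factors without the markers of a hormone-making follicular cell.

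Levels of different transporters were compared per length, as CPM per kilobase of annotated exon (RPKM). ABCC1, the broad exporter of glutathione conjugates and of many drugs together with glutathione, was the highest, with 24.8, 23.1 and 22.3 RPKM in the control group and 20.3, 25.3 and 25.9 RPKM in the knockout-labelled libraries. It alone made up 52.0% to 57.1% of the summed RPKM of the 9 genes in each library. In the control group the order went on with ABCC5 at 5.95 ± 0.272, ABCC4 at 4.95 ± 0.245, ABCC3 at 3.37 ± 0.595, ABCG2 at 3.06 ± 0.185, ABCC10 at 1.82 ± 0.123, ABCC6 at 0.783 ± 0.0618, ABCC2 at 0.508 ± 0.0414 and ABCB1 at 0.268 ± 0.0748 RPKM (SD, n = 3). The libraries of ABCC3 and ABCG2 overlapped in the control group, and no other neighbours in the order did. The same order held in the knockout-labelled libraries, where ABCC3 at 3.21 ± 0.244 RPKM and ABCG2 at 2.27 ± 0.275 RPKM (SD, n = 3) no longer overlapped. ABCB1, which encodes P-glycoprotein and is the best known etoposide exporter, was thus the lowest of the 9 per length. Summed over the 9 genes, transporter counts were 10864, 10345 and 10622 in the control libraries and 14718, 12007 and 18160 in the knockout-labelled libraries, which is 0.0341% to 0.0417% of all counts.

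**Figure D1:**
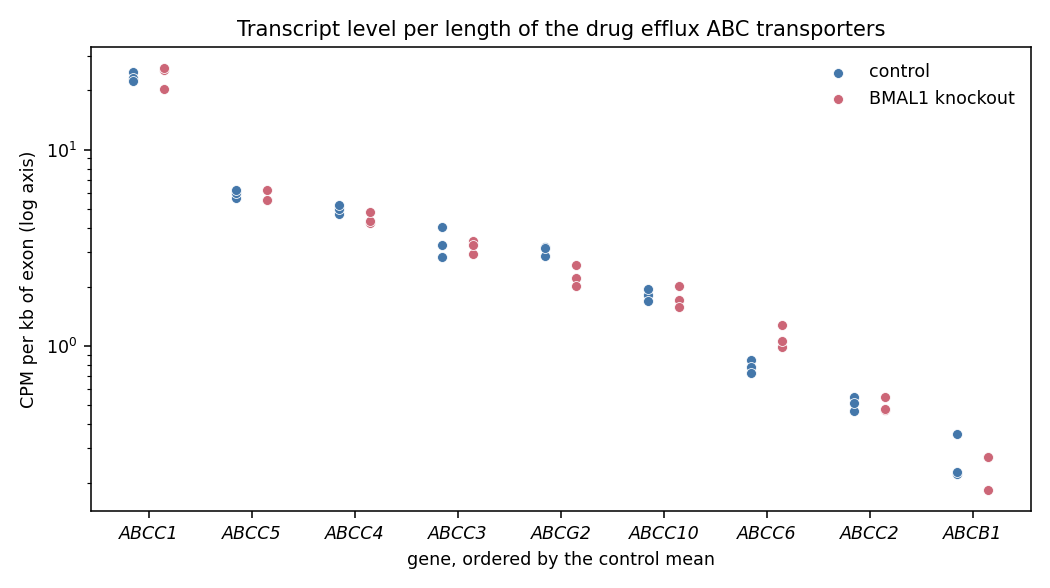
CPM per kilobase of exon (log axis) of the 9 drug efflux transporters in each of 3 control libraries (blue) and 3 knockout-labelled libraries (red), ordered by the control mean. ABCC1 lies above all others in every library, and ABCB1 lies lowest.

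The comparison asks whether transcripts of the exporters that can carry etoposide differ between the groups. ABCG2 was lower and ABCC6 higher in all 3 knockout-labelled libraries than in all 3 control libraries, to 0.741 and 1.40 times the control level. The other 7 overlapped between groups. At an adjusted p under 0.05, edgeR called 0 of the 9 transporters (2 at an unadjusted p under 0.05) and DESeq2 called 1, ABCG2. Over all 14860 loci tested, edgeR called 2.51%, with 1.08% upregulated and 1.43% downregulated, and 16.9% had an unadjusted p under 0.05. With scaling by library size alone this balance turned, as edgeR called 185 loci upregulated and 155 downregulated in place of 161 and 212. DESeq2 called 4.47% of the 14201 loci to which it gave an adjusted p. The 2 transporters without overlap, 1 higher and 1 lower, stand beside 23.3% of all loci, 11.8% higher and 11.5% lower, so their number was near that background. None of the 9 passed the thresholds the study states, a p-value under 0.01 (read as unadjusted) with more than 2-fold change, which 0.956% of loci passed. These were applied to edgeR values here, while the study used DESeq2. In direction alone, 7 transporters were lower and 2 higher, with a median log2 fold change of -0.05 against 0.0099 over all loci tested. ABCG2, ABCC4, ABCC5 and ABCC6 kept their direction in all 14 alternatives of processing, tool or left-out library. The other 5 changed sign in at least 1 of them, and ABCC2, counted among the lower, turned to 0.0030 when only library size was used for scaling. In bulk RNA, fewer expressing cells and less RNA per cell cannot be told apart.

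**Figure D2:**
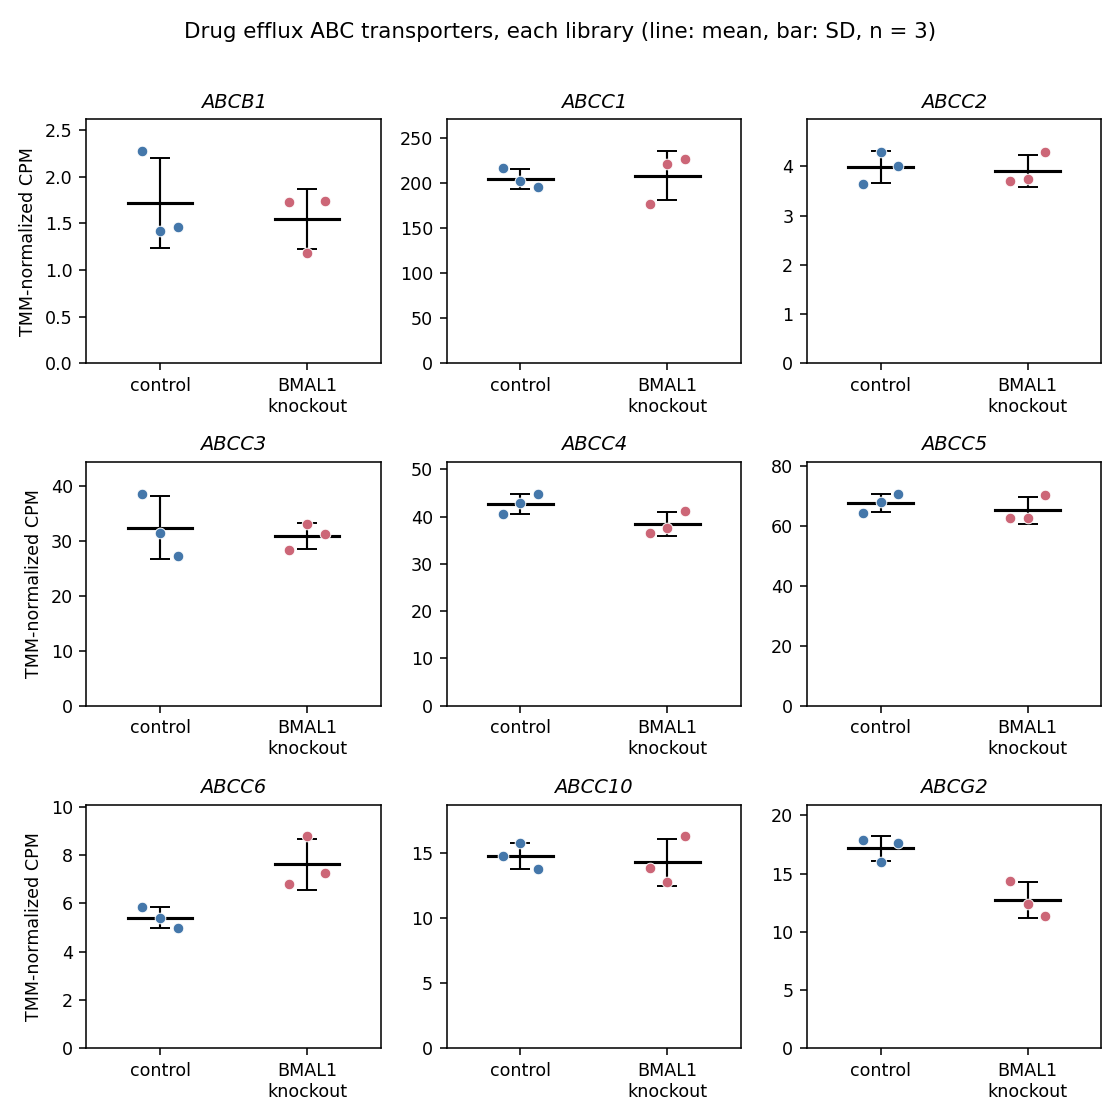
TMM-normalized CPM of each transporter in 3 control libraries (blue) and 3 knockout-labelled libraries (red), with the group mean (line) and SD (bar), each axis starting at 0. The groups are apart for ABCC6 and ABCG2 and overlap for the other 7.

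ABCG2 encodes an exporter built from a pair of identical subunits, which carries topoisomerase poisons such as mitoxantrone and topotecan, and urate. Its CPM were 17.9, 16.0 and 17.6 in the control group and 14.4, 12.4 and 11.4 in the knockout-labelled libraries. The highest knockout-labelled library, replicate 1, lay below the lowest control library. The log2 fold change was -0.43 (SE 0.11, 95% interval -0.68 to -0.19), with an edgeR Benjamini-Hochberg adjusted p of 0.0696 and an unadjusted p of 0.00246. A two-sided exact permutation test of the 6 libraries gave p = 0.1, the smallest that 3 against 3 can give. DESeq2 gave a Benjamini-Hochberg adjusted p of 0.0441. Without knockout replicate 1, the edgeR test gave a log2 fold change of -0.54 and a Benjamini-Hochberg adjusted p of 0.0208. Over all 14 alternatives the log2 fold change stayed between -0.54 and -0.36, and the adjusted p lay between 0.00941 and 0.215.

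ABCG2 (ENSG00000118777.12) lies at chr4:88090150-88231628 of hg38 on the reverse strand. Its promoter is printed because the E-box, the letters CACGTG that BMAL1 and its partner CLOCK are known to bind, occurs there. RefSeq (GRCh38.p14) windows from 250 bases before to 50 bases after a start were searched on both strands for the E-box, and 14 windows of 7 of the 9 transporters were found. Of all 27305 genes with a window, 8.77% held an E-box in at least 1. Among the transporters, ABCG2 and ABCC10 held it. By window, it was in 3 of the 14, beside 7.26% of all 35116 windows. ABCG2 had several windows, and so more chances of a match. Its window at the outermost start of the gene, chr4:88231577-88231876, held no E-box. The ABCG2 window below runs over chr4:88158860-88159159 on the reverse strand, a start inside the gene, with the E-box in capitals.
ABCG2 promoter window: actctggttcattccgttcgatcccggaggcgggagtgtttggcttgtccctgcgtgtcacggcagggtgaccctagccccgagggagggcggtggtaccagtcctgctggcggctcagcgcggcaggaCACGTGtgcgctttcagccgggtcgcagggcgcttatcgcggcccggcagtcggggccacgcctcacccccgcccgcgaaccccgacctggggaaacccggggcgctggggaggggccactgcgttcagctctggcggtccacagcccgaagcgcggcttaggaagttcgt
The flanks of both E-boxes, at chr4:88159013-88159042 on the reverse strand for ABCG2 and at chr6:43427368-43427397 on the forward strand for ABCC10, are set side by side.
ABCG2 E-box: agcgcggcaggaCACGTGtgcgctttcagc
ABCC10 E-box: gagcgaatactcCACGTGagaggttataaa
The ABCG2 match ends 115 bases before the transcription start in the window shown, and also lies in an overlapping window of a second start. ABCC10 was at 14.7, 15.7 and 13.7 CPM in the control group and 13.8, 12.7 and 16.2 CPM in the knockout-labelled libraries. The carriers of an E-box were therefore 1 gene whose groups were apart and 1 whose groups overlapped. The D-box, TTATGTAA, was in 0 of the 7 transporters and 1.13% of all genes. Of the letters tied to drug-sensing factors, the aryl hydrocarbon receptor core GCGTG was in 5 of the 7 transporters (40.6% of all genes). The antioxidant response letters TGACNNNGC were in 3 of 7 (16.1% of all genes), and the nuclear receptor site AGGTCA was in 1 of 7, ABCG2 (16.5% of all genes). No E-box overlapped another of these motifs. ABCC6 held 0 of the 5 motifs. A match is a description of the letters, not a binding site.

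ABCC6 encodes a transporter of liver and kidney that is needed for release of ATP and whose loss causes pseudoxanthoma elasticum, with only weak drug transport. Its CPM were 5.85, 5.38 and 5.0 in the control group and 6.79, 8.78 and 7.27 in the knockout-labelled libraries. Each knockout-labelled library was above each control library, and replicate 2 was the highest. The log2 fold change was 0.49 (SE 0.14, 95% interval 0.17 to 0.80), with an edgeR Benjamini-Hochberg adjusted p of 0.104 and an unadjusted p of 0.00546. The two-sided exact permutation test again gave p = 0.1. Without knockout replicate 1, edgeR gave 0.56 on the log2 scale and a Benjamini-Hochberg adjusted p of 0.0618. Across the 14 alternatives, the log2 fold change was between 0.38 and 0.56 and the adjusted p between 0.0312 and 0.353. The level of ABCC6 is uncertain. Its longest transcript matches the pseudogene ABCC6P1 at 99.27% over 1238 of 5203 bases and ABCC6P2 at 98.84% over 258 bases. Only uniquely mapped reads were counted, so reads that fit a pseudogene equally well could be missing from the ABCC6 count. ABCC6 (ENSG00000091262.17) lies at chr16:16149565-16223522 of hg38 on the reverse strand, next to ABCC1. The neighbour ABCC1 had a log2 fold change of 0.02, and the 40 tested genes nearest to ABCC6 had a median of -0.02, with 0 called by edgeR.

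Whether ABCG2 and ABCC6 passed the threshold depended on the setting. With each library's trend in GC content removed, an alternative added after the data had been seen, both passed in edgeR, at Benjamini-Hochberg adjusted p-values of 0.00941 and 0.0312. The same setting called 1108 loci in place of 373, and its cause was not tested.

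**Figure D3:**
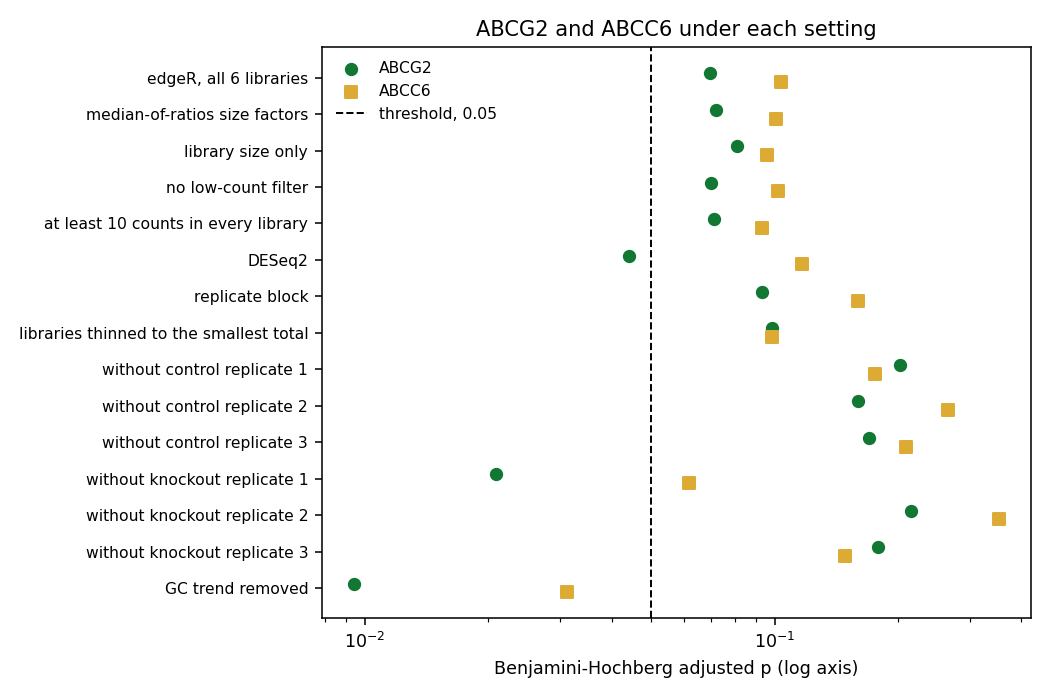
Adjusted p (log axis) of ABCG2 (circles) and ABCC6 (squares) in edgeR with all 6 libraries and in each of 14 alternatives, with the threshold of 0.05 as a dashed line. ABCG2 falls under the line in 3 alternatives and ABCC6 in 1.

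The main etoposide exporters overlapped between groups. ABCB1, or P-glycoprotein, had 2.27, 1.42 and 1.46 CPM in the control group and 1.73, 1.18 and 1.74 CPM in the knockout-labelled libraries. It had only 36 to 77 counts per library, and the 95% interval of its log2 fold change (-0.14) ran from -0.71 to 0.43. Its transcript matches ABCB4 at 95.44% over 241 of 5205 bases, while ABCB4 itself had at most 6 counts in any library. ABCC1 had 217, 202 and 195 CPM in the control group and 177, 221 and 226 CPM in the knockout-labelled libraries. Knockout replicate 1 was the lowest and the other 2 were above every control library. The log2 fold change of ABCC1 was 0.02, with a 95% interval from -0.19 to 0.24 and an adjusted p of 0.929 in edgeR with Benjamini-Hochberg adjustment. Without knockout replicate 1 it was 0.13, with an edgeR Benjamini-Hochberg adjusted p of 0.291.

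ABCC2 and ABCC3 export glucuronides, ABCC2 at the apical face of epithelial cells and ABCC3 at the basolateral face. ABCC2 was at 3.65, 4.30 and 4.0 CPM in the control group and 3.70, 3.73 and 4.29 CPM in the knockout-labelled libraries. ABCC3 was at 38.5, 31.4 and 27.2 CPM and at 28.3, 33.0 and 31.3 CPM. The spread of ABCC3 within the control group was wider than the difference between group means. The log2 fold changes were -0.03 for ABCC2 (95% interval -0.37 to 0.31) and -0.07 for ABCC3 (95% interval -0.34 to 0.19).

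ABCC4 and ABCC5 lack the extra membrane domain of ABCC1 and carry cyclic nucleotides and nucleotide analogues. ABCC4 had 40.5, 42.8 and 44.7 CPM in the control group and 36.4, 37.5 and 41.3 CPM in the knockout-labelled libraries, so only knockout replicate 3 reached the range of the control group. Its log2 fold change of -0.15 had a 95% interval from -0.34 to 0.04. ABCC5 had 64.4, 68.0 and 70.6 CPM and 62.6, 62.8 and 70.3 CPM, with a log2 fold change of -0.05 (95% interval -0.23 to 0.12). Both were lower in all 14 alternatives. ABCC10, an exporter of taxanes, had a log2 fold change of -0.04 (95% interval -0.29 to 0.21). It shares 76 exon bases with DLK2 on the opposite strand, and whether the counting used strand is not stated, so its level is uncertain.

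**Figure D4:**
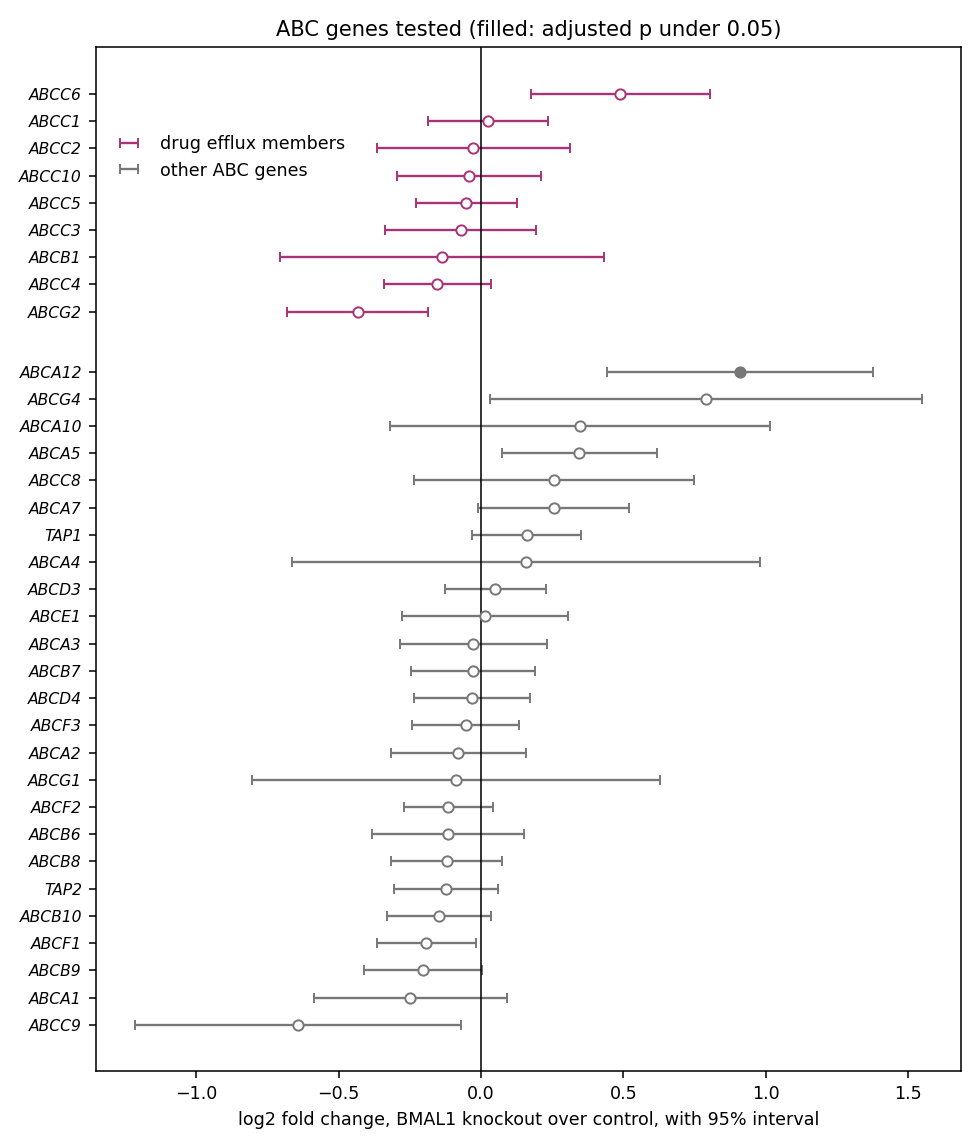
Log2 fold change of the 9 drug efflux transporters (purple) and other ABC genes tested (grey), knockout-labelled libraries over control, with 95% intervals from edgeR. Intervals of ABCG2 and ABCC6 leave out 0 among the transporters, and ABCA12 is the 1 gene with an adjusted p under 0.05 (filled).

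The rest of the ABC superfamily was set beside them. Of 39 other ABC genes, 26 were tested and 1 was called by edgeR. ABCA12, a lipid transporter of keratinocytes, was upregulated from 1.89 ± 0.113 to 3.57 ± 0.900 CPM (SD, n = 3 each), with a log2 fold change of 0.91 and a Benjamini-Hochberg adjusted p of 0.0474 in edgeR. That call held only without knockout replicate 3 among the 6 edgeR fits that left out a library, and was also lost after thinning to equal depth (edgeR, Benjamini-Hochberg adjusted p 0.0635). The 26 had a median log2 fold change of -0.04, close to the -0.05 of the transporters, and 8 did not overlap between groups, beside 23.3% of all loci. In the nearest relatives, of subfamilies B, C and G at the plasma membrane, 4 of 12 were tested and 0 called by edgeR (2 at an unadjusted p under 0.05) or DESeq2. The 2 were ABCC9 at -0.64 and ABCG4 at 0.79 on the log2 scale. The bile salt exporter ABCB11 had 4 counts in 1 library and 0 in the others, and CFTR had 0 counts in every library. Among the other families without a call by edgeR or DESeq2, genes with the smallest p-values included the peptide carriers ABCB9 (-0.20) and TAP1 (0.16), the mitochondrial ABCB10 (-0.15) and ABCB8 (-0.12), the peroxisomal ABCD3 (0.05), and the ribosome factors ABCF1 (-0.19) and ABCF2 (-0.11), all as log2 fold changes.

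Efflux works against uptake. The 24 listed solute carriers of organic ions, nucleosides and folate were mostly for uptake, with some exporters among them. Of the 24, 13 were tested, 6 higher and 7 lower, and 2 were downregulated in edgeR (4 at an unadjusted p under 0.05, in either direction). DESeq2 called these and SLC22A4, which had a log2 fold change of -0.61. The largest log2 fold change of the list, 1.6, was that of SLCO4C1, higher in all 3 knockout-labelled libraries (16 to 28 counts) than in the control libraries (4 to 5 counts) and not called, with an edgeR Benjamini-Hochberg adjusted p of 0.0806. SLCO4A1, a carrier of organic anions that include thyroid hormones, was at 76.2, 72.6 and 85.8 CPM in the control group and 46.9, 49.6 and 56.4 CPM in the knockout-labelled libraries. The groups were well apart, and its log2 fold change came to -0.62 (by edgeR with a Benjamini-Hochberg adjusted p = 0.00626), a call made in 6 of 6 fits that left out a library. SLC19A1, the reduced folate carrier, fell by 0.44 on the log2 scale (edgeR, Benjamini-Hochberg adjusted p = 0.0460). Its call held without knockout replicate 1 or knockout replicate 3 and in no other such fit. It was also lost with scaling by library size alone and after thinning to equal depth, at Benjamini-Hochberg adjusted p-values of 0.0657 and 0.0506 in edgeR.

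Conjugation with glutathione, glucuronic acid or sulfate makes substrates for the ABCC transporters. Of 20 genes of glutathione synthesis and transfer, 18 were tested and 13 were higher, beside 7762 of 14860 over all loci, and 1 of them, GSTM3, was upregulated in edgeR (5 at an unadjusted p under 0.05). GSTM3 was at 27.8, 28.7 and 26.9 CPM in the control group and 46.0, 39.7 and 33.3 CPM in the knockout-labelled libraries, a log2 fold change of 0.51 with a Benjamini-Hochberg adjusted p of 0.0371 by edgeR. Its call held in 2 of 6 fits, those without knockout replicate 1 or knockout replicate 3. Among 19 genes of drug metabolism, 10 were tested and 0 called by edgeR (4 at an unadjusted p under 0.05) or DESeq2. The smallest p-values were those of the sulfotransferase SULT1A1, with a log2 fold change of 1.17 at 0.563 ± 0.132 and 1.28 ± 0.0123 CPM (SD, n = 3 each), and of UGDH, which makes UDP-glucuronic acid, at -0.24. CYP3A4, the liver enzyme that oxidizes etoposide, had 5 counts in 1 library and 0 in the others.

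Among 23 regulators known to act on efflux genes, 20 were tested. EdgeR called 0 of them (4 at an unadjusted p under 0.05) and DESeq2 called 0, and the smallest p-values were those of HIF1A at a log2 fold change of -0.30 and PPARG at -0.44. Of the 4 clock output factors that bind the D-box, TEF was downregulated, from 12.6 ± 0.953 to 8.85 ± 0.162 CPM (SD, n = 3 each), by a log2 fold change of -0.51 with an adjusted p of 0.0368 in edgeR with Benjamini-Hochberg adjustment. The call of TEF held without knockout replicate 1 and in no other of the 6 fits that left out a library, and was lost with scaling by library size alone (edgeR, Benjamini-Hochberg adjusted p 0.0503). The other 3 were higher and called by neither tool, with log2 fold changes of 0.28 for NFIL3, whose groups did not overlap, 0.26 for HLF and 0.03 for DBP. Of 7 scaffold proteins that hold transporters at the membrane, EZR, or ezrin, was downregulated from 547 ± 13.0 to 437 ± 8.52 CPM (SD, n = 3 each). Its log2 fold change was -0.32, with an adjusted p of 0.0326 in edgeR with Benjamini-Hochberg adjustment. This call too held only without knockout replicate 1. DESeq2, which called 4.47% of loci, called 3 of the 7, EZR and MSN (-0.22 on the log2 scale) as lower and PDZK1 (0.47) as higher.

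**Figure D5:**
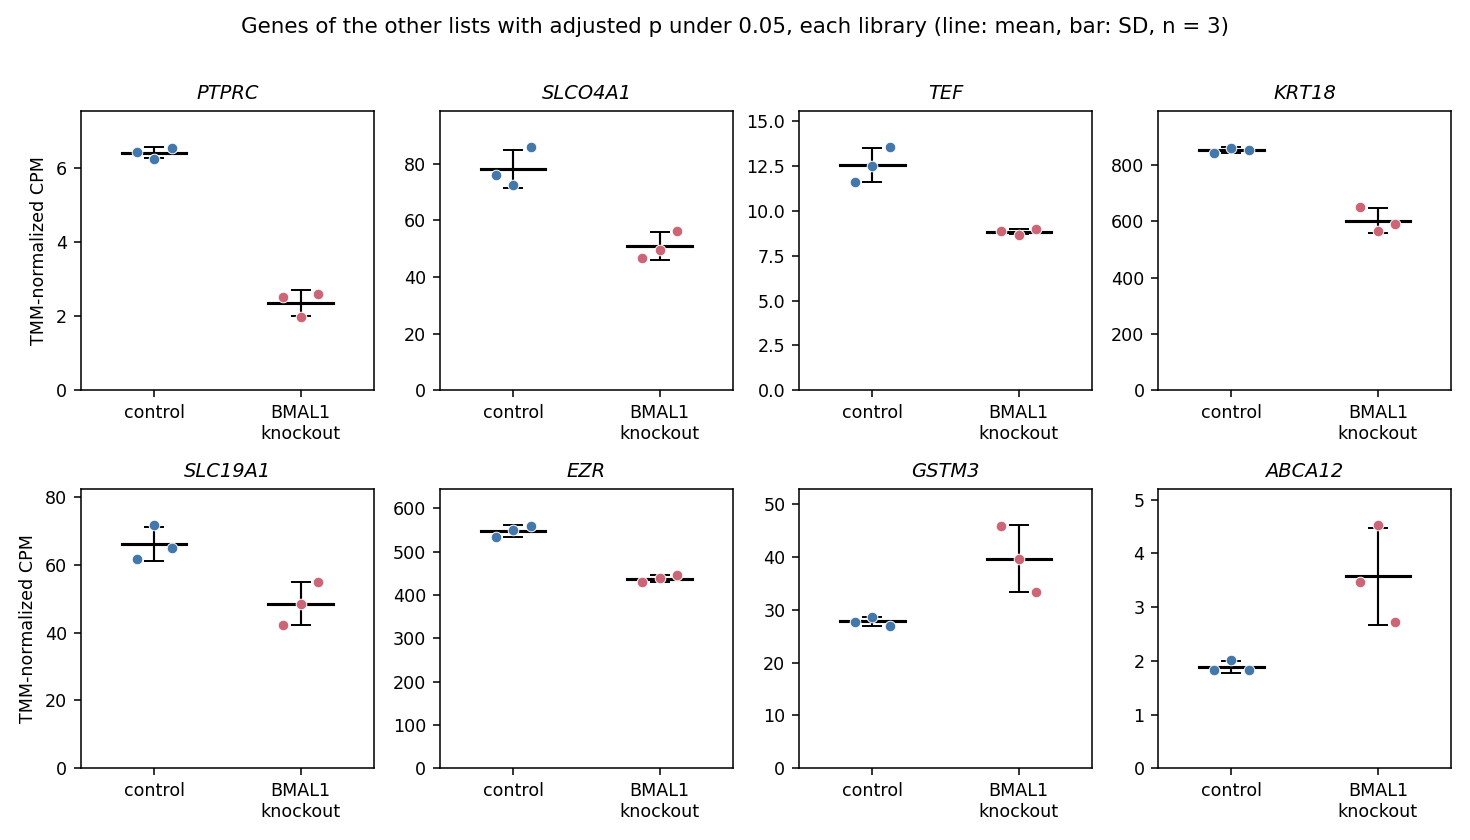
TMM-normalized CPM of the genes of the other lists with an adjusted p under 0.05 in edgeR, in 3 control libraries (blue) and 3 knockout-labelled libraries (red), with group mean (line) and SD (bar), each axis starting at 0. The groups do not overlap in any of the 8.

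Markers of other cells were read in the same libraries. KRT18 was downregulated (log2 fold change -0.50) (Benjamini-Hochberg adjusted p = 0.00583 by edgeR), a call lost only without control replicate 2, and the 6 epithelial markers summed to 2989, 3043 and 2896 CPM in the control group and 2538, 2480 and 2562 CPM in the knockout-labelled libraries. Of these, 5 were tested, and the fall of the sum lay in KRT18 and KRT8 (log2 fold change -0.28), the latter called by DESeq2 and not by edgeR. The other 3 tested, KRT7, KRT19 and EPCAM, were higher, with log2 fold changes of 0.10, 0.23 and 1.57 and no call by edgeR or DESeq2. Of the 6 leukocyte markers, summed CPM were 19.2, 19.8 and 18 in the control group and 14.1, 12.4 and 13.1 in the knockout-labelled libraries, and 1 was downregulated. This was PTPRC, at 6.41, 6.24 and 6.53 CPM and at 2.51, 1.97 and 2.60 CPM, a log2 fold change of -1.43 with a Benjamini-Hochberg adjusted p of 0.00127 by edgeR (called in 6 of 6 fits that left out a library). It held the largest part of the fall of the sum. CD14, the only tested leukocyte marker that was higher, had a log2 fold change of 0.99, at 0.261, 0.337 and 0.643 CPM and at 0.375, 1.05 and 1.08 CPM, and was called by neither tool. The leukocyte marker with the highest CPM was CD68, at 12.5, 13.1 and 10.7 CPM and at 11.2, 9.37 and 9.41 CPM, while CD3E and MS4A1 had 0 counts in every library. Of 12 thyroid markers, 3 were tested and 0 called by edgeR (2 at an unadjusted p under 0.05) or DESeq2, and their sum was 173, 174 and 201 CPM in the control group and 130, 150 and 173 CPM in the knockout-labelled libraries. Fibroblast markers gave 0 calls among 2 of 7 tested in edgeR (0 at an unadjusted p under 0.05) and in DESeq2, with COL1A1 at 903, 907 and 770 CPM and at 699, 913 and 965 CPM but DCN and LUM at 0. Endothelial markers likewise gave 0 calls among 3 of 5 tested (0 at an unadjusted p under 0.05) with either tool, VWF having the highest mean CPM, at 1.38, 1.12 and 1.11 CPM and at 0.984, 0.721 and 1.26 CPM. None of the 5 C cell and parathyroid markers was tested, and CHGA, with the most counts of them, had at most 8 in any library. The part of these markers in the values of ABCG2 and ABCC6 was not tested.

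The genes most like ABCG2 were sought by the root mean square difference of centred log2 CPM over the 6 libraries, among 13340 loci with a mean of at least 1 CPM. The closest were ITGA2 (0.0631), WDR19 (0.0652), the assembled locus MSTRG.22226 (0.0683), IFIT2 (0.0686) and BIRC3 (0.0736). Their log2 fold changes were -0.39, -0.38, -0.47, -0.39 and -0.53, with edgeR Benjamini-Hochberg adjusted p-values of 0.0891, 0.0963, 0.0465, 0.0326 and 0.0149 in that order. These loci were chosen for a profile like that of ABCG2 in the same libraries. Lower values therefore follow from the choice and are no separate result about ABCG2. On its chromosome, 24 of the 40 nearest tested genes were higher and 16 lower, with a median log2 fold change of 0.04, and edgeR called 6 of them, beside 2.51% of all loci. The 4 closest, PKD2, PPM1K, HERC6 and HERC5, were all lower, at -0.12, -0.14, -0.38 and -0.33 on the log2 scale, and edgeR called HERC6 and HERC5 at Benjamini-Hochberg adjusted p-values of 0.0456 and 0.0354. Both calls were lost with scaling by library size alone and in 5 of the 6 fits that left out a library, all but that without knockout replicate 1, and that of HERC6 also after thinning to equal depth. The neighbours of ABCB1 were higher in 36 of 40 genes (median 0.19), those of ABCC2 in 33 (median 0.13) and those of ABCC5 in 30 (median 0.14), while these 3 transporters had log2 fold changes of -0.14, -0.03 and -0.05. The neighbours of ABCC10 were lower in 29 of 40 genes, with a median of -0.06 beside the -0.04 of ABCC10. For ABCC1, ABCC3 and ABCC4 the medians were -0.02, -0.01 and -0.06, with 22, 22 and 23 of 40 lower.

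The comparison has limits. It rests on 3 libraries per group. Only the knockout-labelled cells are described as grown from single clones, so BMAL1 loss, cloning and differences between clones cannot be told apart. BMAL1 transcript was higher, not lower, in the knockout-labelled libraries, and its counts do not show whether the protein was lost. All cells had etoposide, so nothing here speaks of its effect. Whether transporter protein or drug export differed was not analysed here. A missed threshold does not show that levels were equal, and the 95% intervals of the 7 overlapping transporters give the differences these libraries allow.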

How the data were processed

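RNA was sequenced in 3 control libraries and 3 libraries labelled BMAL1 knockout. Before alignment to hg38, the authors filtered the reads for adapter sequence and base quality. The table they deposited holds raw counts per gene, made from uniquely mapped reads. The processing notes name fastp 0.20.1 and HISAT2 2.0.4, and the annotation and the use of strand are not given in the sources used here. Counts of 2 replicates of a group differed by 5.41 to 45.0 times the variance of counting alone, the most where knockout replicate 1 was one of them, so replicate spread limits the precision of abundant genes.

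CPM with TMM factors, fold changes and 2-sided p-values were computed from the counts with edgeR 4.0.16 (R 4.3.3) (quasi-likelihood fit, robust, default low-count filter, 14860 loci kept, Benjamini-Hochberg adjustment over all of them, threshold 0.05). Gene names were matched to GENCODE 44 for 20018 of 22354 loci. RPKM used its exon length. Transcripts were compared with BLAST 2.17.0, at 95% identity over at least 200 bases.

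The members and gene lists were chosen with earlier results of these data known. The genes named are the members, BMAL1, genes of each list with an adjusted p under 0.05 (or the 2 smallest p-values), the marker of each cell type with the highest CPM, and the 5 loci closest in profile to the member with the smallest p; others (NR1D1, NR1D2, ABCB4, ABCB11, CFTR, CYP3A4, SLCO4C1, SLC22A4, NFIL3, HLF, DBP, MSN, PDZK1, the nearest neighbours of ABCG2, KRT7, KRT8, KRT19, EPCAM, CD14 and markers at or near 0) were named after their values were seen. Some genes of the lists are not reported here. Alternatives were other size factors, other filters, DESeq2 1.42.0, a replicate block, thinning to equal depth, leaving out each library and, added after seeing the data, removal of the GC trend. The edgeR, DESeq2 and GC steps were tested on simulated data.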

Additional observations from a re-analysis of the deposited data

How the results depend on the processing

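Of the 9 transporters, edgeR called 0 in the fit as reported and with scaling by library size or by median-of-ratios factors, with no filter, with a minimum of 10 counts in each library, with a replicate block and after thinning to equal depth. DESeq2 called 1 (ABCG2). Leaving out each library in turn called 0 to 1, the 1 being ABCG2 without knockout replicate 1. With the GC trend removed, an alternative chosen after seeing the data, 2 were called (ABCG2 and ABCC6). ABCG2, ABCC4, ABCC5 and ABCC6 kept their direction in all 14 alternatives, and the 2 transporters whose groups do not overlap numbered 2 also under both other scalings and at equal depth. Over those alternatives ABCC1 was positive in 11, ABCB1 in 2, ABCC2 in 4, ABCC3 in 1 and ABCC10 in 2 of 14.

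The count of loci called was 373 as reported. It was 635 with DESeq2, 1108 with the GC trend removed, 142 at the study's thresholds (on edgeR values), and between 113 and 633 with each library left out, the lowest without control replicate 2 and the highest without knockout replicate 1. Causes of these shifts were not tested. Same-numbered libraries deviated with correlations of -0.09, -0.052 and -0.005, so the numbers do not pair them, and the fit with a replicate block called 277 loci and 0 transporters. TEF, EZR, HERC5 and HERC6 were not called in it, at Benjamini-Hochberg adjusted p-values of 0.0739, 0.0893, 0.104 and 0.104 in edgeR. Other scalings moved the median log2 fold change of all loci to at most 0.0384. ABCB1 had the fewest counts of the 9, 36 to 77 per library.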
